A study of Mus musculus with 28 samples.

Results

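The genes described here are 10 mouse genes linked to cell quiescence or to the FOXO transcription factors: Gas1, Pdgfra, Pik3ip1, Ccng2, Klhl24, Irs2, Sesn3, Bcl6, Foxo1 and Foxo3. They were matched on the gene symbol of the array annotation, with every probe set of the gene kept, which gave 27 of the 34945 probe sets that carry 1 symbol. Klhl24 had 5 probe sets, Foxo1 had 4, Gas1, Pdgfra and Foxo3 had 3 each, Pik3ip1, Ccng2, Sesn3 and Bcl6 had 2 each, and Irs2 had 1. A further probe set annotated to Foxo3 and to another symbol was left out. The genes were picked after earlier results of these data had shown several of them high in NIH3T3 at 25 mM glucose at 72 h against 0 h, so that contrast is given as a description with no test.

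The study grew NIH3T3, an immortalised mouse fibroblast line, and NIH3T3 K-ras, a line of the same fibroblasts named for the K-ras oncogene, in 1 mM or 25 mM glucose. RNA was taken when the medium was changed (0 h, 25 mM only) and at 24, 48 and 72 h after it. The 14 groups were K-ras in 1 mM at 24, 48 and 72 h, K-ras in 25 mM at 0, 24, 48 and 72 h, NIH3T3 in 1 mM at 24, 48 and 72 h, and NIH3T3 in 25 mM at 0, 24, 48 and 72 h. Each group held 2 arrays, labelled biological replicates, and all cultures had glutamine and newborn calf serum in the medium. The labels do not give the K-ras allele, its promoter or whether the line was 1 clone, and a difference between lines is a difference between these 2 cell lines.

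Quiescence is a reversible exit from the cell cycle that fibroblasts enter when growth factors, nutrients or space run short. When growth factors act through PI3K, the kinase AKT phosphorylates FOXO proteins and holds them in the cytoplasm. When that signal falls, FOXO proteins enter the nucleus and act on genes of arrest, stress resistance and nutrient handling. Of the genes here, Foxo1 and Foxo3 encode such factors, while Ccng2, Sesn3, Irs2, Pik3ip1, Klhl24 and Bcl6 have been described as their targets in various cell types. Gas1 and Pdgfra are known as transcripts of arrested fibroblasts. FOXO activity is set mainly by the protein's place in the cell, which an RNA array does not measure.

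Deposited values are log2 ratios, each probe set being centred on its median across 28 arrays, so 0 is that median and 1 is a ratio of 2, and levels of different genes cannot be set against each other. Going by 2 marker genes, 6 of the 28 arrays looked like the line they were not labelled as. Il33, a cytokine gene, lay between 1.26 and 3.11 on 11 arrays labelled K-ras and between -6.52 and -5.52 on 11 labelled NIH3T3. Krt14, a keratin gene, lay between -4.58 and -3.90 on those K-ras arrays and between 0.95 and 2.49 on those NIH3T3 arrays. The 6 arrays that went against their labels were replicate 1 of K-ras 1 mM 48 h, of K-ras 1 mM 72 h, of K-ras 25 mM 0 h and of NIH3T3 1 mM 48 h, and both arrays of NIH3T3 1 mM 24 h. They keep their labels here, and results that rest on them are given with and without them. At 25 mM the line also coincided with a split in bioC, a hybridisation control, so the line and this split cannot be told apart.

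The start of each gene was taken from RefSeq. The promoter table (GRCm38.p6) held 10 promoters for 9 of the 10 genes, Bcl6 having 2, while Klhl24 was not matched. The letter patterns of 2 sites associated with FOXO proteins were searched on both strands in the 250 bases before each start. GTAAACA, the core of the forkhead site, was in 0 of the 10, against 3.17% of all 32851 promoters. CAAAACAA, the core of the insulin response element, was in 2 of the 10, those of Ccng2 and Irs2, against 2.21% of all promoters. These 2 promoters are printed because they hold the pattern, and those of Sesn3 and Gas1 because they are among the genes that differed most. Each line gives the 120 bases before the start, 5′ to 3′ on the gene's strand, with the pattern in capitals.
Ccng2, chr5:93267453-93267572, plus strand: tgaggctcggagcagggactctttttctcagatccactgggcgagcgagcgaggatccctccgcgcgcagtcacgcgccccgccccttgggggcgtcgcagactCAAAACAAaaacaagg
Irs2, chr8:11008930-11009049, minus strand: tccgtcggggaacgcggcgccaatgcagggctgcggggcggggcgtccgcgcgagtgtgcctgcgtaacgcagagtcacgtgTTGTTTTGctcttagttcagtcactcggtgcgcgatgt
Sesn3, chr9:14276181-14276300, plus strand: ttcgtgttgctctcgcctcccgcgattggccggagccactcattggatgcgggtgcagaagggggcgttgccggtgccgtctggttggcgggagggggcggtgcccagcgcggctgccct
Gas1, chr13:60177536-60177655, minus strand: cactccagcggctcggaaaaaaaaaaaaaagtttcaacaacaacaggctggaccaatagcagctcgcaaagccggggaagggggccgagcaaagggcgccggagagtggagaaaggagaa
In the Ccng2 promoter the pattern began 16 bases before the start, and in the Irs2 promoter its reverse complement TTGTTTTG began 38 bases before it. Ccng2 and Irs2 went opposite ways over time in NIH3T3 (their values follow), so the pattern was shared by a gene that was high late and a gene that was low late. A match of letters does not show a site in use.

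In NIH3T3 cells at 25 mM, 8 of the 10 genes were higher at 72 h than at 0 h, Foxo1 and Foxo3 among them, while Irs2 was lower and Bcl6 hardly differed. Over the 27 probe sets, 23 had both 72 h arrays above both 0 h arrays, against 25.7% of all probe sets, and 3 had both below, against 34.0%. Because genes were chosen on this contrast, nothing is read from those counts. The median log2 difference of the 27 was 1.79. As the samples are bulk RNA, a smaller share of cells with a transcript and less of it per cell cannot be told apart, here or below.

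Ccng2 encodes cyclin G2, an unusual cyclin that is associated with arrest rather than with cycling. Its probe set 1416488_at (chr5:93267573-93276231) read -4.07 and -4.04 at 0 h, -3.26 and -2.96 at 24 h, 0.15 and -1.48 at 48 h and 0.21 and 0.35 at 72 h. The log2 difference between 72 and 0 h was 4.34 ± 0.95 (SE from limma, as for all log2 differences here), and 3.23 on the second probe set, 1448364_at. The early arrays were low and tight, the 72 h arrays high, and the 48 h replicates lay apart.

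Klhl24, on chromosome 16, encodes a kelch protein that recruits substrates to a cullin ubiquitin ligase. Its probe set 1429351_at read -2.41 and -4.03 at 0 h, -1.97 and -2.65 at 24 h, 2.01 and -0.07 at 48 h and 1.61 and 1.22 at 72 h. The difference between 72 and 0 h was 4.63 ± 0.93 on that probe set and 1.02 to 3.07 on the other 4. The 5 probe sets shared a direction but not a size.

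The membrane proteins of the group followed. Gas1 (chr13:60174405-60177535) encodes a membrane-anchored protein that restrains entry into S phase and also binds hedgehog ligands. Its probe set 1448494_at read -1.20 and -1.21 at 0 h, -0.80 and -0.97 at 24 h, 1.91 and 0.45 at 48 h and 2.60 and 2.07 at 72 h in NIH3T3 at 25 mM. Both 72 h arrays lay above both 48 h arrays, which differed from each other. The 72 against 0 h difference was 3.54 ± 0.62, and 3.21 and 1.03 on its other probe sets.

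Pdgfra encodes the alpha receptor for platelet-derived growth factor. Its probe set 1421917_at (chr5:75151322-75198206) read -2.81 and -2.65 at 0 h, -2.17 and -2.15 at 24 h, 0.81 and -1.20 at 48 h and 1.11 and 0.91 at 72 h. The difference between 72 and 0 h was 3.73 ± 0.79, and 2.14 and 1.47 on the other probe sets. Pik3ip1, a membrane protein that inhibits the catalytic subunit of PI3K, read -0.78 and -0.62 at 0 h, -0.41 and -0.46 at 24 h, 2.15 and -0.19 at 48 h and 2.62 and 2.48 at 72 h on probe set 1439087_a_at. Both Pik3ip1 probe sets agree, with differences of 3.25 ± 0.60 and 2.98 between 72 and 0 h.

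Sesn3 encodes sestrin 3, which restrains mTORC1, the growth-promoting kinase complex. Its probe set 1449303_at (chr9:14276301-14326134) read -2.09 and -1.80 at 0 h, -1.88 and -2.68 at 24 h, 0.66 and -0.86 at 48 h and 0.89 and 0.66 at 72 h. Sesn3 stayed low through the 24 h arrays, and the 72 against 0 h difference was 2.72 ± 0.60, with 1.55 on the second probe set.

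The factors themselves varied less. Foxo1 probe set 1416981_at read -0.08 and 0.65 at 0 h, 0.79 and 0.03 at 24 h, 2.05 and 0.26 at 48 h and 1.79 and 1.77 at 72 h, a difference of 1.50 ± 0.48 between 72 and 0 h. Probe sets 1416982_at and 1416983_s_at gave 1.32 and 1.56, while 1456529_at gave 0.14. Foxo3 probe set 1434831_a_at read -0.84 and -0.65 at 0 h, -0.22 and -0.16 at 24 h, 1.22 and -0.13 at 48 h and 1.25 and 1.46 at 72 h. Foxo3 differed between 72 and 0 h by 2.10 ± 0.41 on that probe set, by 1.79 on 1434832_at and by -0.14 on 1450236_at. The probe sets with values near 0 were also the narrowest of the 27 over all 28 arrays, with SDs of 0.20 for 1456529_at and 0.21 for 1450236_at, where the widest, 1416488_at of Ccng2, had 1.52.

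Irs2 and Bcl6 did not share the pattern. Irs2, which encodes an adaptor between the insulin and IGF-1 receptors and PI3K, read 0.82 and 0.87 at 0 h, 0.97 and 0.36 at 24 h, -0.34 and 0.16 at 48 h and 0.06 and -0.06 at 72 h on its single probe set 1443969_at. It was lower by 72 h, with a difference of -0.84 ± 0.41. Bcl6, a transcriptional repressor best known in B cells, read -0.50 and -0.60 at 72 h against -0.65 and -0.82 at 0 h on 1421818_at, and its probe sets differed in sign (0.19 ± 0.49 and -0.34).

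**Figure D1:**
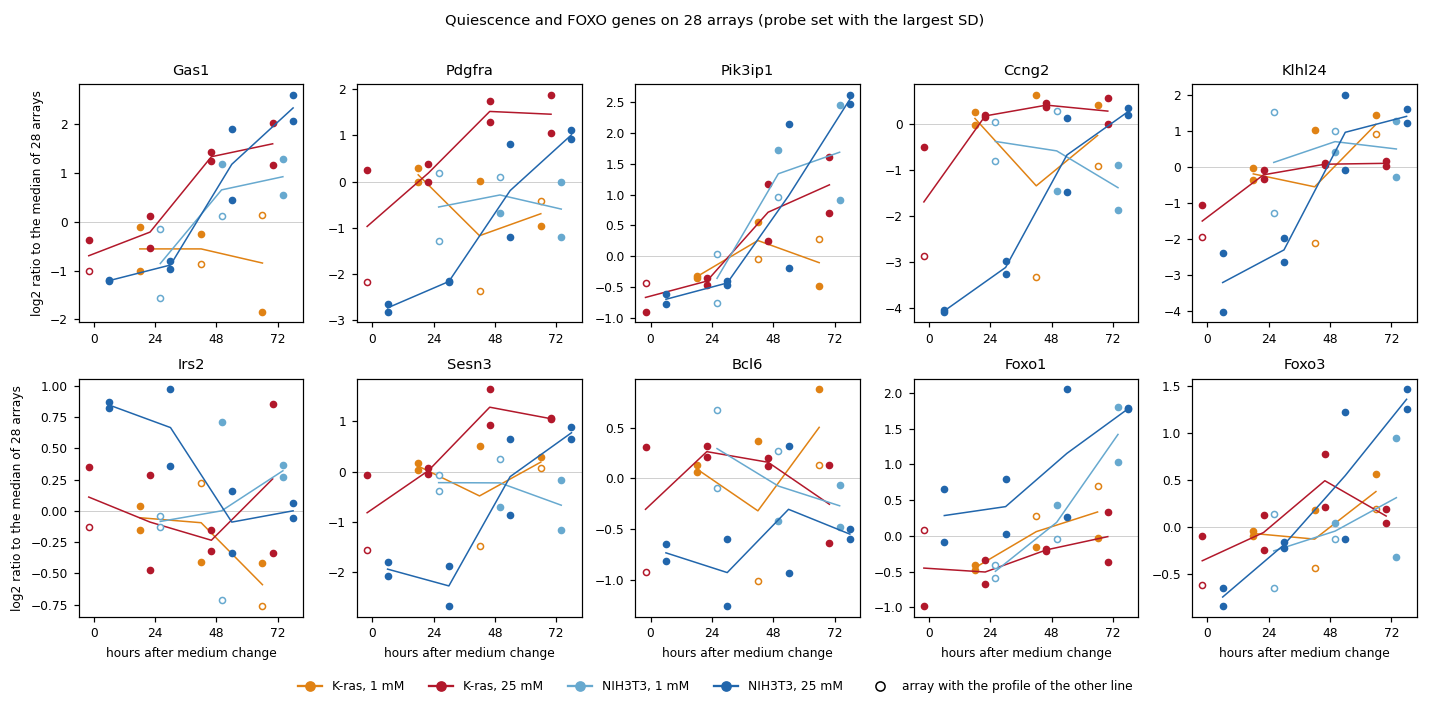
The log2 ratio to the median of 28 arrays is plotted against hours after the medium change for the widest probe set of each of the 10 genes, with lines through the means of the 2 arrays of a group and open points for the 6 arrays with the profile of the other line. Ccng2 lay at -4.07 and -4.04 in NIH3T3 at 25 mM and 0 h, below all other groups, and Gas1, Pik3ip1, Foxo1 and Foxo3 were highest in NIH3T3 at 25 mM and 72 h.

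The step between 24 and 48 h used no array of the 72 against 0 h contrast, and was tested. With all 28 arrays in the fit (limma, adjusted over 34945 probe sets, threshold 0.05), 0 of the 27 probe sets passed, as did 0.0% of all probe sets, although 13 of the 27 and 4525 of all had an unadjusted p under 0.05. Both 48 h arrays lay above both 24 h arrays in 16 of the 27, against 18.3% of all probe sets, and below in 3, against 25.5%. The log2 differences of the widest probe sets were 3.28 ± 0.93 for Klhl24 (adjusted p = 0.174), 2.44 ± 0.95 for Ccng2 (adjusted p = 0.29), 2.18 ± 0.60 for Sesn3 (adjusted p = 0.169) and 2.06 ± 0.62 for Gas1 (adjusted p = 0.189). On these 4 probe sets the 48 h replicates lay apart, replicate 1 above replicate 2. Irs2 had replicate 2 above replicate 1, and Bcl6 1450381_a_at, Klhl24 1438519_at and Foxo3 1450236_at had replicates close together.

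Without the 6 arrays out of place, none of which belongs to these groups, the same differences had smaller SEs, 4 of the 27 probe sets passed and 0.484% of all probe sets were called higher. They were both of Ccng2 (2.44 ± 0.42, adjusted p = 0.0298, and 1.63 ± 0.27, adjusted p = 0.0255), 1 of Klhl24 (3.28 ± 0.64, adjusted p = 0.0435) and 1 of Sesn3 (2.18 ± 0.44, adjusted p = 0.0471). Gas1 1448494_at did not pass (adjusted p = 0.06). The smaller SEs drew on the spread of all groups in the fit: with only the arrays compared, 0 of the 27 and 0 of all probe sets passed. Over all alternatives the adjusted p of Ccng2 1416488_at ran from 0.0298 to 1, that of Ccng2 1448364_at from 0.0255 to 1, that of Klhl24 1429351_at from 0.0435 to 1 and that of Sesn3 1449303_at from 0.0372 to 1. Without NIH3T3 25 mM 48 h replicate 2, 4 of the 27 probe sets and 837 of all passed in the fit to the other 27 arrays.

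In K-ras cells at 25 mM, Gas1, Pik3ip1, Pdgfra and Sesn3 had 72 h arrays above the 24 h arrays on their widest probe sets. Klhl24 had both 72 h arrays above both 24 h arrays on its widest probe set as well. Ccng2, Klhl24, Foxo1 and Foxo3 differed less on theirs, by 0.11, 0.32, 0.49 and 0.18. Their other probe sets differed by -0.36 (Foxo3 1450236_at) to 0.75 (Klhl24 1428651_at), with 0.70 on Foxo3 1434832_at. None of the genes passed the test. Between 24 and 72 h, 0 of the 27 probe sets passed, as did 0.0% of all probe sets (limma, adjusted over 34945 probe sets), and 3 of the 27 and 3318 of all had an unadjusted p under 0.05. Both 72 h arrays lay above both 24 h arrays in 13 of the 27, against 19.8% of all probe sets, and below in 2, against 16.2%. The step between 24 and 48 h in K-ras was not tested by itself. There both 48 h arrays lay above both 24 h arrays in 18 of the 27, against 18.5% of all probe sets. They lay below in 2, against 22.7%. On the widest probe sets, 8 of the 10 genes were above and 1 was below. Between 0 and 72 h, 0 of the 27 passed as well, as did 0.0% of all probe sets, with 12 and 4951 at an unadjusted p under 0.05. Of the 0 h arrays, 1 was out of place. When the 6 arrays were left out, 0 of the 27 passed in either comparison, against 0.0172% of all probe sets between 24 and 72 h and 0.0229% against 0 h (0.0143% higher and 0.00858% lower). Without K-ras 25 mM 72 h replicate 2, which leaves the 72 h group with replicate 1, 1 of the 27 and 3714 of all probe sets passed between 24 and 72 h, and 3 of the 27 and 4054 of all passed against 0 h. The 1 was Gas1 1456322_at (1.87, adjusted p = 0.00155, not called in the 28-array fit), on which replicate 1 read 2.01 and replicate 2 read 0.29 at 72 h.

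Gas1 and Pik3ip1 had the widest gaps in K-ras, with the higher 72 h value of each on replicate 1. That array stood apart: its interquartile range was 0.654, against 0.264 to 0.449 on the other arrays, and its bioC was 2.98, with 0.83 the next highest. Its part in these differences was not tested. Gas1 1448494_at read 2.03 and 1.17 at 72 h against -0.53 and 0.11 at 24 h, a difference of 1.82 ± 0.62 (adjusted p = 0.488). Pik3ip1 1439087_a_at read 1.61 and 0.71 at 72 h against -0.46 and -0.35 at 24 h, a difference of 1.57 ± 0.60 (adjusted p = 0.491). Neither gene overlapped between the times, and neither passed the test.

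Pdgfra and Sesn3 came next. Pdgfra 1421917_at read 1.87 and 1.04 at 72 h against -0.01 and 0.38 at 24 h, a difference of 1.27 ± 0.79 (adjusted p = 0.622). Sesn3 1449303_at read 1.04 and 1.07 at 72 h against -0.04 and 0.08 at 24 h, a difference of 1.03 ± 0.60 (adjusted p = 0.592). Their groups did not overlap on these probe sets, but Pdgfra 1438946_at went the other way, reading -0.70 and 0.98 at 72 h against 0.64 and 1.05 at 24 h, with overlap.

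Ccng2 and Klhl24, the widest movers in NIH3T3, were nearly level in K-ras at 25 mM after 24 h on their widest probe sets. Ccng2 1416488_at read 0.16 and 0.21 at 24 h, 0.47 and 0.37 at 48 h and 0.57 and 0.01 at 72 h in K-ras. Klhl24 1429351_at read -0.09 and -0.34 at 24 h, 0.10 and 0.06 at 48 h and 0.18 and 0.03 at 72 h. Their 72 against 24 h differences in K-ras were 0.11 ± 0.95 and 0.32 ± 0.93, beside 3.39 ± 0.95 and 3.73 ± 0.93 in NIH3T3. At 0 h the K-ras array in place read -0.50 for Ccng2 and -1.07 for Klhl24, and the array out of place read -2.87 and -1.94. Other probe sets were not all level: the 72 against 24 h difference in K-ras was 0.56 on Ccng2 1448364_at and 0.75 on Klhl24 1428651_at. The remaining Klhl24 probe sets gave -0.10, -0.10 and 0.02.

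Whether the 24 to 48 h change differed between lines was tested as line by time at 25 mM (K-ras minus NIH3T3). Of the 27 probe sets, 0 passed, as did 0.0% of all probe sets (limma, adjusted over 34945 probe sets), with 1 and 1673 at an unadjusted p under 0.05, and without the 6 arrays 0 passed too. The differences were -2.99 ± 1.32 for Klhl24 1429351_at and -2.21 ± 1.35 for Ccng2 1416488_at, each with an adjusted p of 0.996. A difference of time course between lines is therefore not shown for any of the genes, and the interval of each is wide.

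**Figure D2:**
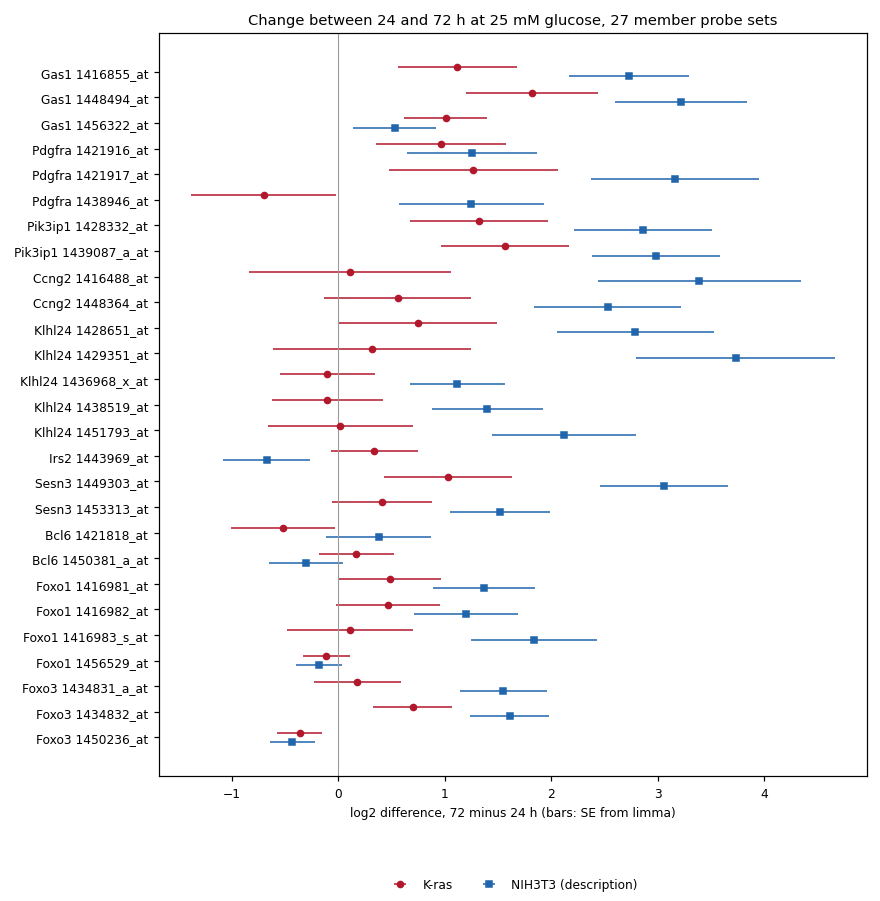
The log2 difference between 72 and 24 h at 25 mM is drawn for each of the 27 probe sets in K-ras and in NIH3T3, with SE bars from limma. Ccng2 1416488_at stood at 0.11 in K-ras and 3.39 in NIH3T3, and Gas1 1448494_at at 1.82 in K-ras and 3.22 in NIH3T3.

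K-ras and NIH3T3 cells at 25 mM were compared over the mean of 24 and 48 h, whose arrays are outside the NIH3T3 72 against 0 h contrast. With 28 arrays, 2 of the 27 probe sets were higher in K-ras (limma, adjusted over 34945 probe sets) and 0 were lower, against 0.964% and 0.383% of all probe sets. They belonged to Pdgfra and Sesn3. With replicate number as a block, 0 of the 27 were called. Leaving out the 6 arrays kept the differences and lowered their errors. Then 7 of the 27 were higher and 1 lower, against 4.80% and 4.35% of all probe sets (9.15% in either direction). Those 8 were all probe sets of Pdgfra, Ccng2 and Sesn3, all higher in K-ras, and 1 of Foxo1, lower in K-ras.

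Pdgfra 1421916_at read 0.24 and 0.65 at 24 h and 1.99 and 1.34 at 48 h in K-ras, against -0.81 and -1.16 at 24 h and 0.01 and -1.07 at 48 h in NIH3T3. All 4 K-ras arrays lay above all 4 NIH3T3 arrays. The difference was 1.81 ± 0.43 (adjusted p = 0.0489), and without the 6 arrays 1.81 ± 0.24 (adjusted p = 0.000283). Over all alternatives this adjusted p ran from 0.000283 to 0.174.

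Sesn3 1449303_at read -0.04 and 0.08 at 24 h and 1.64 and 0.93 at 48 h in K-ras, against -1.88 and -2.68 at 24 h and 0.66 and -0.86 at 48 h in NIH3T3. The lines were apart at each time, though 1 NIH3T3 array of 48 h exceeded the K-ras arrays of 24 h. The difference was 1.84 ± 0.43 (adjusted p = 0.0476, from 0.00184 to 0.166 over the alternatives).

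Ccng2 1416488_at read 0.16 and 0.21 at 24 h and 0.47 and 0.37 at 48 h in K-ras, against -3.26 and -2.96 at 24 h and 0.15 and -1.48 at 48 h in NIH3T3. The gap was widest at 24 h, 3.29 ± 0.95, and 1.09 ± 0.95 at 48 h. The mean difference of 2.19 ± 0.67 had an adjusted p of 0.0939 with 28 arrays and 0.000358 without the 6 (range over the alternatives 0.000358 to 0.255).

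Foxo1 was the gene with a probe set called lower in K-ras, in the fit without the 6 arrays. Its probe set 1416982_at read -0.82 and -0.93 at 24 h and -0.72 and -0.49 at 48 h in K-ras, against 0.31 and 0.45 at 24 h and 1.37 and 0.24 at 48 h in NIH3T3, with no overlap. The difference of -1.33 had an SE of 0.34 and an adjusted p of 0.057 with 28 arrays, and an SE of 0.21 and an adjusted p of 0.00125 without the 6 (range over the alternatives 0.00125 to 0.178). Foxo1 1416981_at gave -1.13 ± 0.34, 1416983_s_at gave -0.89 and 1456529_at gave -0.09, and none of these passed in either fit.

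Gas1, Pik3ip1, Klhl24, Irs2, Bcl6 and Foxo3 were not called between lines in either fit. Their widest probe sets differed by 0.41 ± 0.44, -0.12 ± 0.42, 0.60 ± 0.66, -0.45 ± 0.29, 0.83 ± 0.35 and 0.04 ± 0.29, in that order. The calls on Pdgfra and Sesn3 in the 28-array fit did not survive the loss of a replicate: without any 1 of the 8 arrays compared, 0 of the 27 probe sets passed, and 0 to 26 of all.

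**Figure D3:**
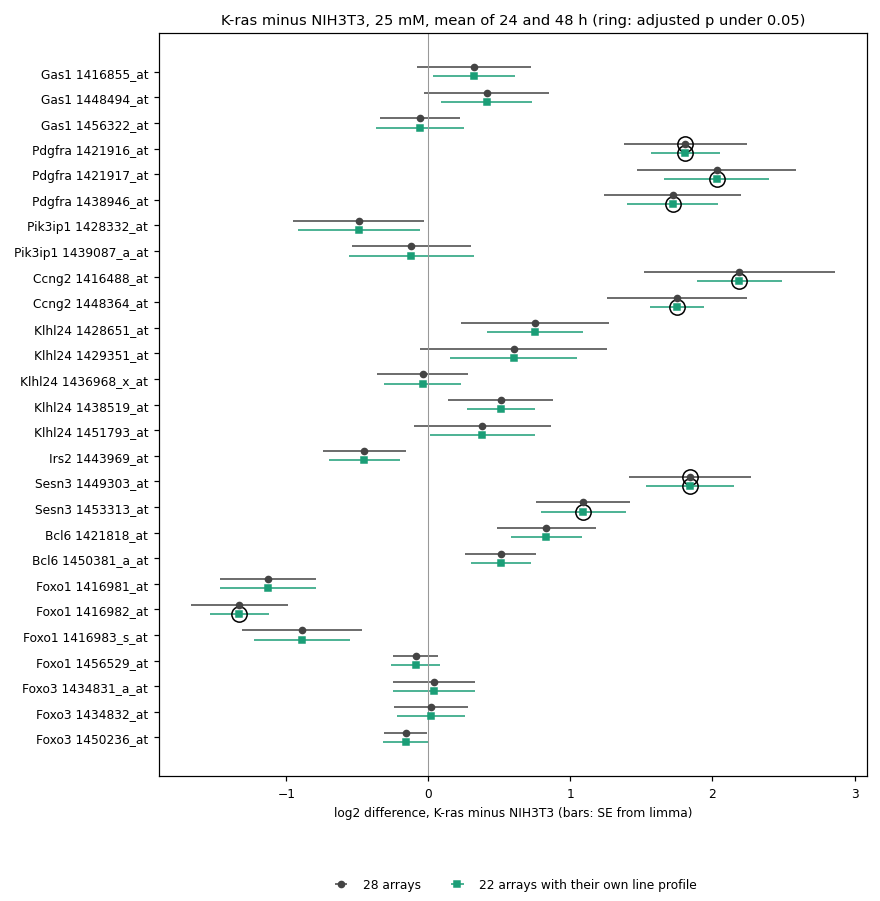
The log2 difference between K-ras and NIH3T3 at 25 mM, as the mean of 24 and 48 h, is drawn for the 27 probe sets from 28 arrays and from the 22 arrays with their own line's profile. Bars are SEs and rings mark an adjusted p under 0.05. Pdgfra, Ccng2 and Sesn3 lay to the right, up to 2.19 for Ccng2 1416488_at, and Foxo1 1416982_at to the left at -1.33.

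At 72 h, where the NIH3T3 arrays are those the genes were chosen on, the lines are described only. Foxo1 1416981_at read -0.36 and 0.34 in K-ras against 1.79 and 1.77 in NIH3T3, a difference of -1.79 ± 0.48. Pik3ip1 1439087_a_at differed by -1.39 ± 0.60, Klhl24 1429351_at by -1.31 ± 0.93 and Foxo3 1434831_a_at by -1.24 ± 0.41, all with both K-ras arrays below. Ccng2 1416488_at differed by 0.01 ± 0.95, Pdgfra 1421917_at by 0.45 ± 0.79 and Sesn3 1449303_at by 0.28 ± 0.60. Pdgfra 1421916_at still read higher in K-ras, 1.41 on both arrays against 0.49 and 0.05 in NIH3T3, a difference of 1.14 ± 0.61.

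Low glucose was compared with high glucose within K-ras, within each time and as a mean. At 24 h, where all 4 arrays had their own line's profile, 0 of the 27 probe sets passed, as did 0.0% of all probe sets (limma, adjusted over 34945 probe sets), with 0 and 273 at an unadjusted p under 0.05. The widest probe sets of the 10 genes differed there by -0.34 to 0.08. Over the mean of 24, 48 and 72 h, 0 of the 27 passed with 28 arrays, against 0.00286% of all, with 9 and 2994 at an unadjusted p under 0.05. On the 22 arrays in place, 2 of the 27 were lower in 1 mM, against 0.495% of all probe sets, and 0 were higher, against 0.200% (0.695% in either direction).

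These were probe sets of Gas1 and Pdgfra. Gas1 1448494_at read -0.87 and -0.24 at 48 h in 1 mM against 1.43 and 1.24 in 25 mM, and 0.15 and -1.84 at 72 h in 1 mM against 2.03 and 1.17 in 25 mM. Replicate 1 at 48 h and at 72 h in 1 mM is out of place, and the arrays in place, -0.24 and -1.84, were below both 25 mM arrays of their time as well. The fit without the 6 arrays thus had replicate 2 alone in 1 mM at 48 h and at 72 h, assumed to vary like the other groups. At 24 h, where all arrays were in place, the Gas1 1448494_at difference was -0.34, so the mean below is not a uniform difference over the times. The mean difference was -1.56 ± 0.36 (adjusted p = 0.19), and without the 6 arrays -1.78 ± 0.30 (adjusted p = 0.019), which is 3.44-fold lower in 1 mM. Over all alternatives this adjusted p ran from 0.019 to 0.597. Leaving out K-ras 25 mM 72 h replicate 2 left that group with replicate 1 alone. Replicate 1 is the array that stood apart in interquartile range and bioC, and it carried the Gas1 value of 2.03. Nothing is therefore read from the calls of that fit.

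Pdgfra 1421916_at read -0.65 and 0.32 at 48 h in 1 mM against 1.99 and 1.34 in 25 mM, and -1.08 and -1.17 at 72 h in 1 mM against 1.41 and 1.41 in 25 mM. All 1 mM arrays of these times lay below those of 25 mM, replicate 1 in 1 mM being out of place at both. At 24 h the Pdgfra 1421916_at difference was -0.20. The mean difference was -1.52 ± 0.35 (adjusted p = 0.191), and without the 6 arrays -1.38 ± 0.23 (adjusted p = 0.0164, range over the alternatives 0.0164 to 0.617). Over the same mean with 28 arrays, Sesn3 1449303_at differed by -0.85 ± 0.35, Ccng2 1416488_at by -0.78 ± 0.55, Pik3ip1 1439087_a_at by -0.55 ± 0.35 and Foxo1 1416981_at by 0.22 ± 0.28, and none passed. The value of Ccng2 rested on the arrays out of place: on the 22 arrays in place it was 0.10 ± 0.28, of the opposite sign, and that of Sesn3 was -0.48 ± 0.29.

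The mean over both lines and the 3 times holds the NIH3T3 25 mM 72 h arrays of the contrast on which the genes were chosen, so it is described and nothing is read from its counts. With 28 arrays, 0 of the 27 passed, as did 0.0% of all probe sets, with 7 and 1843 at an unadjusted p under 0.05 (limma). On the 22 arrays in place NIH3T3 24 h dropped out, since both its 1 mM arrays were out of place, and the mean was over the other 5 pairs of groups. There 1 of the 27, Gas1 1448494_at, was lower, with a log2 difference of -1.35 ± 0.23, beside 0.220% of all probe sets called lower and 0.0801% higher. Leaving out K-ras 25 mM 72 h replicate 2 left that group with replicate 1, which stood apart, so the calls of that fit are not read here either.

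**Figure D4:**
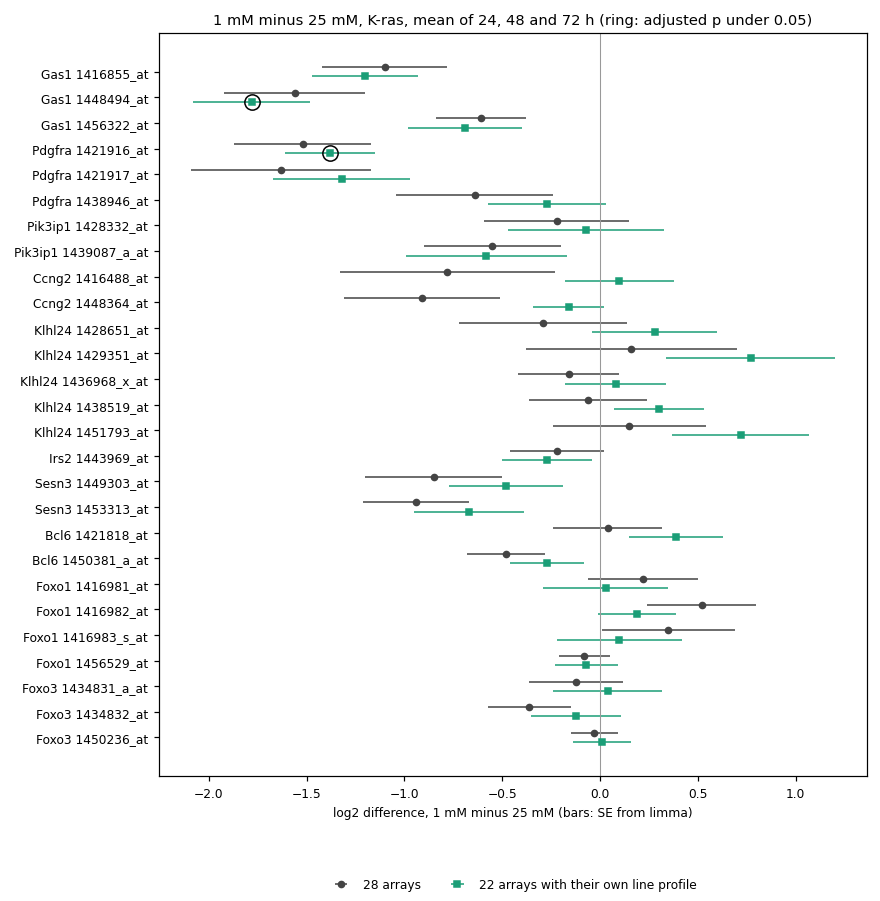
The log2 difference between 1 mM and 25 mM in K-ras, as the mean of 24, 48 and 72 h, is drawn for the 27 probe sets from 28 arrays and from the 22 arrays with their own line's profile. Bars are SEs and rings mark an adjusted p under 0.05. Gas1 1448494_at lay at -1.78 and Pdgfra 1421916_at at -1.38 without the 6 arrays, the 2 ringed points.

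In NIH3T3, glucose can be described at 72 h, on arrays that all had their own line's profile. Ccng2 1416488_at read -1.86 and -0.89 in 1 mM against 0.21 and 0.35 in 25 mM, a difference of -1.66 ± 0.95. Gas1 1448494_at read 0.56 and 1.29 in 1 mM against 2.60 and 2.07 in 25 mM, a difference of -1.40 ± 0.62. Pdgfra, Sesn3, Foxo3 and Pik3ip1 were also lower on both 1 mM arrays, with differences of -1.60 ± 0.79, -1.45 ± 0.60, -1.05 ± 0.41 and -0.87 ± 0.60 on their widest probe sets. The 2 Pik3ip1 arrays in 1 mM lay far apart, with a mean of 1.69 and an SD of 1.09. Irs2 and Bcl6 went the other way, higher on both 1 mM arrays. Their means were 0.32 and -0.27 in 1 mM against 0.00 and -0.55 in 25 mM.

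Klhl24 and Foxo1 overlapped between the glucose levels at 72 h. Klhl24 1429351_at read -0.28 and 1.29 in 1 mM against 1.61 and 1.22 in 25 mM, and Foxo1 1416981_at 1.04 and 1.80 against 1.79 and 1.77. In all, 17 of the 27 probe sets had both 1 mM arrays below both 25 mM arrays, against 16.6% of all probe sets, a count that the choice of genes bears on because it uses the 25 mM arrays at 72 h. At 24 h in 1 mM both NIH3T3 arrays were out of place, so a glucose effect there cannot be told apart from line, and at 48 h the widest probe sets of all 10 genes overlapped between the glucose levels.

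Across the 14 groups, the order of levels differed between the genes. Ccng2, Pdgfra, Klhl24, Gas1, Pik3ip1 and Foxo3 were lowest in NIH3T3 25 mM 0 h, with Ccng2 at -4.05 ± 0.02 (SD, n = 2) and Pdgfra at -2.73 ± 0.11 (SD, n = 2). Ccng2, Pdgfra and Sesn3 were highest in K-ras 25 mM 48 h, at 0.42 ± 0.07, 1.52 ± 0.32 and 1.28 ± 0.50 (SD, n = 2 each). Gas1, Pik3ip1, Klhl24, Foxo1 and Foxo3 were highest in NIH3T3 25 mM 72 h, at 2.33 ± 0.37, 2.55 ± 0.10, 1.42 ± 0.28, 1.78 ± 0.01 and 1.35 ± 0.15 (SD, n = 2 each). Most neighbours in these orders did not differ beyond their spread: of the 13 neighbouring pairs of groups, 10 to 12 overlapped in each gene.

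The genes were also compared by likeness of group means. As a description over 14 groups that include the 6 arrays out of place, Pdgfra and Sesn3 had a Pearson r of 0.95, Ccng2 and Sesn3 0.93 and Ccng2 and Pdgfra 0.91. Gas1 and Pik3ip1 had 0.91. Values between these pairs were high too, so separate sets are not shown: Gas1 had 0.77 with Pdgfra, and Foxo3 had 0.8 with Gas1 and with Pik3ip1. Klhl24 had 0.83 with Ccng2 and 0.78 with Foxo3. Foxo1 had 0.75 with Pik3ip1 and -0.02 with Sesn3, and Irs2 had -0.79 with Ccng2 and -0.83 with Bcl6.

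Of all 18193 genes, those most like the members described in full over the 14 group means were Sipa1l2 and Mgst1 for Pdgfra (r of 0.98 each), Tapbp (0.97) and Tle2 (0.96) for Gas1, Ptgr1 and Gxylt2 for Ccng2 (0.97 each) and Tgfbi and Gpr153 for Sesn3 (0.97 each). Rbis (0.98) and Rsrp1 (0.97) were most like Klhl24, Hacl1 (0.97) and Selenon (0.96) most like Pik3ip1, and Man2b1 and Tspan32 most like Foxo1 (0.98 each).

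Further genes of the pathway were read as lists. Of 46 further FOXO target genes, 0 were called between 24 and 48 h in NIH3T3 with 28 arrays, and their median log2 difference was 0.08, beside -0.06 for all genes. Without the 6 arrays 2 of the 46 were higher, against 0.654% of all genes: Erbb3, a receptor of the EGF receptor family (1.60 ± 0.21, adjusted p = 0.0123), and Rbl2, the pocket protein p130 that represses cell cycle genes in resting cells (1.49 ± 0.30, adjusted p = 0.0454). Of 37 PI3K, AKT and FOXO regulators, 0 were called in that comparison in either fit, with a median of 0.00.

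Growth arrest and quiescence genes other than the members had a median difference of 0.78 between 48 and 24 h in NIH3T3, with 23 of 33 positive and 0 called. Leaving out the 6 arrays, 6 of the 33 were higher, against 0.654% of all genes. Among them were Trp53inp1, a p53-induced stress gene (3.12 ± 0.58, adjusted p = 0.0365), Pdgfrb, the beta receptor of the same growth factor family as Pdgfra (2.74 ± 0.53, adjusted p = 0.0403), Tob1, an antiproliferative protein (2.34 ± 0.45, adjusted p = 0.0403), and Mxd4, a repressor of the Max network (2.22 ± 0.40, adjusted p = 0.0345). In K-ras between 24 and 72 h the list's median was 0.19, with 20 of 33 positive and 0 called.

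Proliferation genes had differences of the opposite sign over time. Of 25 measured, 1 was positive between 24 and 48 h in NIH3T3, with a median of -1.39, and 0 were positive between 24 and 72 h in K-ras, with a median of -0.48, against 0 called in both. Their mean per array was -1.40 to -1.29 at 72 h and 0.41 to 0.52 at 0 h in NIH3T3 at 25 mM. At 48 h in NIH3T3 it was -2.10 on 1 array and 0.07 on the other, the same group in which the members' replicates lay apart. For glucose in K-ras as a mean, where Gas1 and Pdgfra were lower, proliferation genes were negative too: their median was -0.16 with 7 of 25 positive on 28 arrays, and -0.53 with 1 of 25 positive on the 22 arrays in place, with 0 called in both. The part of the proliferation genes in the members' differences was not tested.

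**Figure D5:**
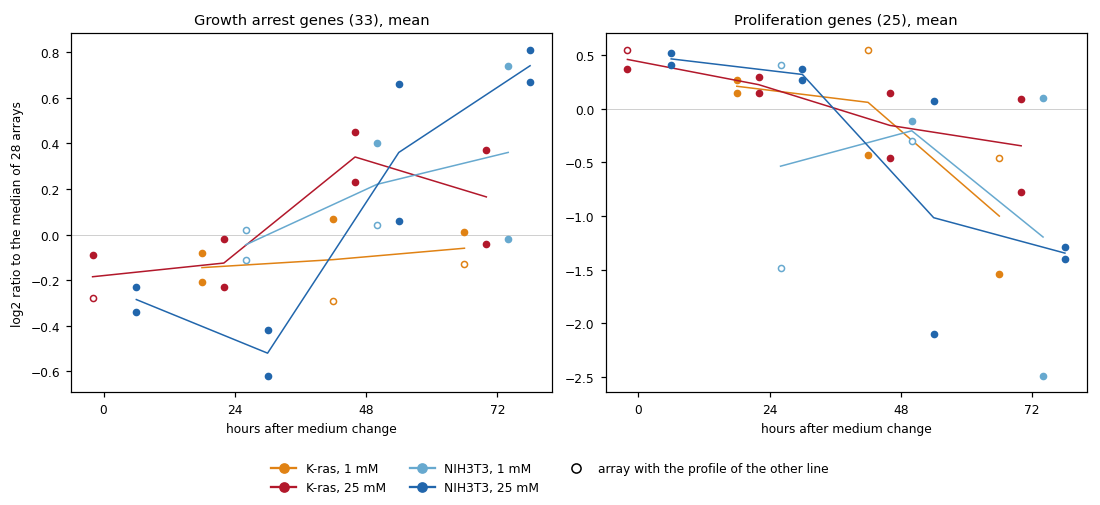
The mean log2 ratio of 33 growth arrest genes other than the members (left) and of 25 proliferation genes (right) is plotted per array against hours after the medium change, with lines through group means and open points for arrays with the profile of the other line. In NIH3T3 at 25 mM the growth arrest mean was 0.67 and 0.81 at 72 h and the proliferation mean -1.40 and -1.29.

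Between lines at 25 mM, 0 genes of these lists were called in the 28-array fit. In the fit to the 22 arrays in place, 3 of the 46 FOXO targets were higher and 4 lower in K-ras, against 5.89% and 5.02% of all genes. Klf2, a zinc finger factor known from resting T cells, was lower with a difference of -4.37 ± 0.18 (adjusted p = 6.86e-09), and Pmaip1, a pro-death BCL2-family gene, was lower with -2.09 ± 0.24 (adjusted p = 9.26e-05). Bnip3, a mitophagy receptor gene, was higher by 1.18 ± 0.21 (adjusted p = 0.00223).

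Upstream of FOXO, 2 of 37 regulators were higher and 3 lower in the same fit. With 5.89% of all genes higher and 5.02% lower, nothing particular to the FOXO targets, the regulators or the growth arrest genes below is read from such counts. Pik3r1, the regulatory subunit of PI3K, was higher in K-ras by 2.34 ± 0.27 (adjusted p = 8.21e-05), and Irs1, the close relative of Irs2, lower with a difference of -0.70 ± 0.19 (adjusted p = 0.0363). Among growth arrest genes, 3 of 33 were higher, with Dcn, a matrix proteoglycan, at 3.55 ± 0.95 (adjusted p = 0.0313), and 3 lower, with Klf4 at -1.75 ± 0.26 (adjusted p = 0.000687). Of 13 hedgehog pathway genes, Boc, a co-receptor that acts beside Gas1, was lower with a difference of -1.44 ± 0.22 (adjusted p = 0.000816) and Gli2 higher by 0.66 ± 0.14 (adjusted p = 0.0106). Of 5 PDGF ligand and receptor genes, Pdgfc was higher by 1.05 ± 0.13 (adjusted p = 0.000175).

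Low glucose in K-ras called 0 genes of these lists with 28 arrays. On the 22 arrays in place, Prrx1, a mesenchymal homeobox gene of the growth arrest list, was lower in 1 mM with a difference of -1.35 ± 0.18 (adjusted p = 0.0056), against 0.610% of all genes. Markers of fibroblasts moved with it: 2 of 7 were lower in 1 mM, Col1a1 differing by -1.56 ± 0.23 (adjusted p = 0.00918) and Thy1 by -1.12 ± 0.18 (adjusted p = 0.0165). Of 3 fat cell markers, Fabp4 was lower (-1.33 ± 0.24, adjusted p = 0.0241) and the other two were positive, with a list median of 0.10. The median of the 7 fibroblast markers in the 28-array fit was -0.65. The part of this marker shift in the Gas1 and Pdgfra differences was not tested. Calls on the 22 arrays had replicate 2 alone in 1 mM at 48 h and at 72 h here too. Markers of leukocytes, epithelial cells, endothelial cells and skeletal muscle had medians between -0.12 and 0.09 in the 28-array fit. Between lines, Cd68, a macrophage marker, was higher in K-ras by 1.20 ± 0.28 with 28 arrays (adjusted p = 0.0488), 1 of 6 leukocyte markers measured, against 1.29% of all genes. The median of the 6 was -0.05, with 3 positive. On the 22 arrays in place Lyz2, another marker of that list, was lower in K-ras (-2.10 ± 0.25, adjusted p = 0.000118).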

How the data were processed

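RNA from 28 fibroblast cultures was measured on Affymetrix arrays, each culture on its own array. The deposited table holds log2 values for 45101 probe sets, and RMA is named per the submitters' processing notes, with no version. Tested on the file, each probe set's linear ratio had a median of 1 within 0.001, so the authors' log2 values are ratios to the probe set's median over the 28 arrays, without levels. Signal over background, scan dates and depth are unknown, and the number of arrays limits the precision.

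Symbols came from the platform annotation: 34945 probe sets had 1 symbol (18193 genes), 932 had several, 9160 had none and 64 were controls. Only those with 1 symbol were fitted, with limma 3.58.1 (lmFit, eBayes) in R 4.3.3, 1 coefficient per labelled group on all 28 arrays (14 residual degrees of freedom), and Benjamini-Hochberg adjustment over the 34945 (threshold 0.05). Where a gene has several probe sets, that with the largest SD is called its widest, and lists use it. The code was tested on simulated data. p-values measure the spread between cultures labelled biological replicates. Some groups held 1 array in place and 1 with the profile of the other line. For genes that differ between the lines, the spread in the fit to all 28 arrays therefore also held that difference. The p-values of that fit do not measure replicate spread alone for such genes.

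The members, the 13 lists (193 of 201 entries measured), the tests and the naming rule (all members, up to 4 called genes per list and comparison by fold change, and the 2 genes most like each member) were chosen with earlier results of these data known. Alternatives were quantile normalisation, leaving out the 6 arrays out of place or each array in turn, fitting only the arrays compared, a replicate block, 1 probe set per gene, an SD filter, array weights and a bioC block. Same-numbered arrays did not deviate together as a rule (r from -0.65 to 0.66 over 91 pairs of groups, median -0.03, with 23 over 0.1). The numbers were therefore not taken as pairs. No 2 arrays held identical values, and the highest correlation between any 2 was 0.862. Promoters came from the RefSeq table, build GRCm38.p6.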

Additional observations from a re-analysis of the deposited data

Results flagged for a closer look

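On the widest probe sets, 3 genes had glucose differences of opposite sign in the lines, with no overlap between glucose levels in either line. The difference between lines was not tested in these cases, and each rests in part on arrays with the profile of the other line.

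Bcl6 at 24 h read 0.06 and 0.13 in 1 mM against 0.21 and 0.32 in 25 mM in K-ras, and 0.68 and -0.09 in 1 mM against -0.60 and -1.26 in 25 mM in NIH3T3. The K-ras difference minus the NIH3T3 difference was -1.39, and both NIH3T3 1 mM arrays were out of place.

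Irs2 at 72 h read -0.76 and -0.42 in 1 mM against 0.85 and -0.34 in 25 mM in K-ras, where -0.42 and -0.34 nearly touch. The 0.85 was on replicate 1, the array that stood apart in interquartile range and bioC. In NIH3T3 Irs2 read 0.37 and 0.27 in 1 mM against 0.06 and -0.06 in 25 mM, a difference between lines of -1.17. Foxo3 at 72 h read 0.19 and 0.56 in 1 mM against 0.04 and 0.19 in 25 mM in K-ras, which nearly touch, and -0.32 and 0.94 in 1 mM against 1.25 and 1.46 in 25 mM in NIH3T3, a difference between lines of 1.32. In both, replicate 1 of K-ras 1 mM at 72 h was out of place.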

How the results depend on the processing

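The number of called probe sets depended strongly on the arrays in the fit, and the causes were not tested beyond that. For the line at 25 mM, 471 probe sets were called with 28 arrays, 1290 after quantile normalisation (682 higher and 608 lower, against 337 and 134), 3198 without the 6 arrays out of place, 2976 with only the arrays compared, 169 with the replicate block, 1133 among probe sets with an SD at or above the median and 2568 with array weights. Of the members, 2 were called, against 8, 7, 0, 6 and 9 under the last 5 of these, and 1 with a single probe set per gene. Without the 6 arrays, counts were 6 for K-ras 72 against 24 h (2 after quantile normalisation), 8 for K-ras 72 against 0 h, 217 for NIH3T3 48 against 24 h (4 members), 243 for glucose in K-ras as a mean (2 members) and 105 for glucose in both lines over the 5 pairs of groups left (1 member, on a mean that holds arrays used to choose the genes), where 28 arrays gave 0, 0, 0, 1 and 0. The 1 call for glucose in K-ras as a mean was 0 after quantile normalisation, with only the arrays compared and with array weights. The replicate block gave 169 calls and 0 members in the line comparison and changed no other count of calls by over 1.5 times.

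Leaving out each array in turn gave 0 to 3714 calls for K-ras 72 against 24 h (members 0 to 1), 0 to 4054 for K-ras 72 against 0 h (0 to 3), 0 to 837 for NIH3T3 48 against 24 h (0 to 4), 0 to 26 for the line (0 to 0), 0 to 1 for line by time (0 to 0), 0 to 0 for glucose in K-ras at 24 h (0 to 0), 0 to 924 for glucose in K-ras as a mean (0 to 2) and 0 to 69 for glucose in both lines (0 to 1). The lone array of a group was then assumed to vary like the others. Where K-ras 25 mM 72 h replicate 2 was left out, the lone array was replicate 1, which stood apart in interquartile range and bioC. The counts of 3714, 4054, 924 and 69 came without K-ras 25 mM 72 h replicate 2, and 837 without NIH3T3 25 mM 48 h replicate 2. No member probe set called in the 28-array fit or under an alternative changed its sign. Under the alternatives that did not drop single arrays, 1331 member values were counted as the same. These were called in both fits, or uncalled in both and within 1 SE. Another 30 passed newly, 2 no longer passed and 24 moved by over 1 SE without a call.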
